A study of Homo sapiens with 66 samples.

Results

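The genes described here encode hnRNPC, its paralog RALY and the proteins that first recognise a 3′ splice site, U2AF1, U2AF2, SF1, SF3B1 and PUF60. These 7 genes were located by their Ensembl identifiers among the 57820 genes of each gene count table, and 96 of the 197626 intron intervals of the day course began at their positions on GRCh37. They were measured by total RNA sequencing in THP-1, a human monocytic cell line, made transgenic for Cas9 and nucleofected with pairs of guide RNAs (gRNAs). Study 1 used cells of a STING-deficient background and held 48 libraries in 16 groups of 3. Study 2 used wild-type Cas9 cells on day 4 and held 18 libraries in 9 groups of 2.

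Every nucleofection held 2 gRNAs, and the nontarget gRNA NC1 took the place of a missing target. In study 1, CTRL cells (NC1 alone), GFP cells (a gRNA against GFP with NC1), ADAR cells (a gRNA against ADAR with NC1), hnRNPC cells (a gRNA against hnRNPC with NC1) and ADAR+hnRNPC cells (both targeting gRNAs) were taken on days 3, 4 and 5 in medium, and CTRL cells given IFN-alpha were taken on day 4. In study 2, CTRL, ADAR, hnRNPC and ADAR+hnRNPC cells were kept in medium, and RNA came from whole cells (total) or from the digitonin-soluble, cytosol-enriched fraction (cytosolic). The digitonin-insoluble fraction, enriched in nuclei and mitochondria (nuclear), was sequenced for hnRNPC cells. The share of edited cells was not measured in the counts, and fewer cells expressing a gene and less RNA per cell cannot be told apart. Each background was a single clone. The labels only number the replicates, and the study's methods describe biological replicates as coming from work done on different days, so p-values measure the spread between such libraries of 1 clone a study.

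Gene counts summed to 95107690 to 152829008 per library in study 1 and to 49666958 to 73873756 in study 2. Levels are given as CPM, the read count scaled to a common library total after normalisation. A gene was called changed at a Benjamini-Hochberg adjusted p of at most 0.05 in edgeR's quasi-likelihood test over 13193 tested genes in study 1 and 13650 in study 2, and all 7 genes were tested in both. The log2 fold changes are given ± the standard error (SE) with 3 libraries a group in study 1 and 2 in study 2. Of 8 monocytic markers, 7 were tested, among them SPI1 at 43.8 to 71.3 CPM in study 1. The defining marker CD14 stayed at 0.0967 to 4.22 CPM there, and CD3E, MS4A1 and EPCAM, markers of T cells, B cells and epithelium, stayed at or below 0.110 CPM. Of the 7 tested monocytic markers, 3, 3 and 5 were called for hnRNPC against CTRL on days 3 to 5 (39.5%, 53.5% and 65.9% of all tested genes) and 0, 3 and 6 for ADAR+hnRNPC against ADAR (31.5%, 58.0% and 71.5%). The part of these marker changes in the values below was not tested. The CTRL pair of total RNA in study 2 differed more than any other pair of that study, with an SD of log2 CPM differences of 0.401 against 0.210 to 0.334, and IFN-alpha replicate 3 stood apart in study 1 (0.396 and 0.434 against the other replicates of its group).

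An intron is recognised at its 3′ end through a branch point, a run of pyrimidines and a final AG. SF1 binds the branch point, U2AF2 (U2AF65) the pyrimidine run and U2AF1 (U2AF35) the AG, and SF3B1, a subunit of the U2 snRNP, then holds the branch point helix. PUF60 is related to U2AF2 and binds uridine-rich tracts beside it. hnRNPC binds runs of uridine in nascent RNA and is known for keeping U2AF2 away from the uridine runs of antisense Alu elements. RALY carries a closely related RNA-recognition motif.

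The gRNAs against hnRNPC that were used for these libraries, 1 in each study, matched coding exon 3 of HNRNPC on the plus strand of GRCh37, opposite to the gene. They are shown because they mark the exon whose flanking introns are described later, and capitals mark the protospacer-adjacent motif read from the genome.
hnRNPC.1 (study 2, chr14:21702173-21702192): ctcattaacatactgaacgaAGG
hnRNPC.2 (study 1, chr14:21702284-21702303): gagattcccaatgaatacacGGG
The 20-base sequence of hnRNPC.2 also matched exactly, with GGG beside it, on chromosome 2 at positions 190788111 to 190788130, in the pseudogene HNRNPCP2 inside C2orf88.

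The last 30 bases of HNRNPC introns 1 to 5 are shown for the run of pyrimidines that these proteins read. The later introns of HNRNPC are not shown. Capitals mark runs of at least 5 T and the last 2 bases of the intron, and all are read from GRCh37 on the gene's strand.
HNRNPC intron 1: tgggctaTTTTTaTTTTTgTTTTTTTacAG
HNRNPC intron 2: ttcacctgtatacTTTTTTTTgctttacAG
HNRNPC intron 3: gtcattaacaTTTTTacttttgTTTTTcAG
HNRNPC intron 4: aattaacccttttcggtatttaTTTTTcAG
HNRNPC intron 5: aatgaattccattttcctcttatccaatAG
U2AF2 intron 5: ccccccccttgtctcctattccctctgcAG
SF3B1 intron 20: gttgatagtttattgacttctattaaatAG
Among the HNRNPC introns shown, the motif TTTTT on the gene's strand lay in the last 30 bases of introns 1 to 4, but not of intron 5. It lay there in 23 of the 78 introns of the 7 genes' representative (MANE) transcripts that were matched and ran from GT to AG (29.5%), against 24.9% of 163616 such intervals inside 1 protein-coding gene. The 2 introns from U2AF2 and SF3B1 are shown because their reads rose relative to their genes in 2 or more comparisons, and neither held the motif.

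HNRNPC (ENSG00000092199.13, chr14:21677295-21737653 on GRCh37, minus strand) was the gene targeted, and its reads fell wherever its gRNA was given in study 1. On day 3 the 3 CTRL libraries stood at 763, 767 and 788 CPM and the hnRNPC libraries at 366, 381 and 382 CPM. On day 5 the CTRL libraries stood at 810, 847 and 806 CPM and the hnRNPC libraries at 314, 331 and 332 CPM. The 30 libraries without the gRNA ranged from 725 to 847 CPM and the 18 with it from 310 to 447 CPM, so the sets did not overlap and every library went with its label. The log2 fold change went from −1.04 ± 0.05 on day 3 (adjusted p = 4.17e-18) to −1.15 ± 0.05 on day 4 and −1.33 ± 0.05 on day 5, which left 48.7%, 45.0% and 39.6% of the CTRL level. In ADAR cells the gRNA gave −1.18 ± 0.05, −1.32 ± 0.05 and −0.92 ± 0.05. There the day 5 libraries, at 402, 394 and 447 CPM, were above all 15 other libraries with the gRNA. The 10 HNRNPC pseudogene or retrocopy rows summed to at most 1.48% of the HNRNPC count in study 1 libraries and 4.88% in study 2. Only uniquely mapped fragments were counted, so these rows do not measure reads shared between HNRNPC and its copies.

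**Figure D1:**
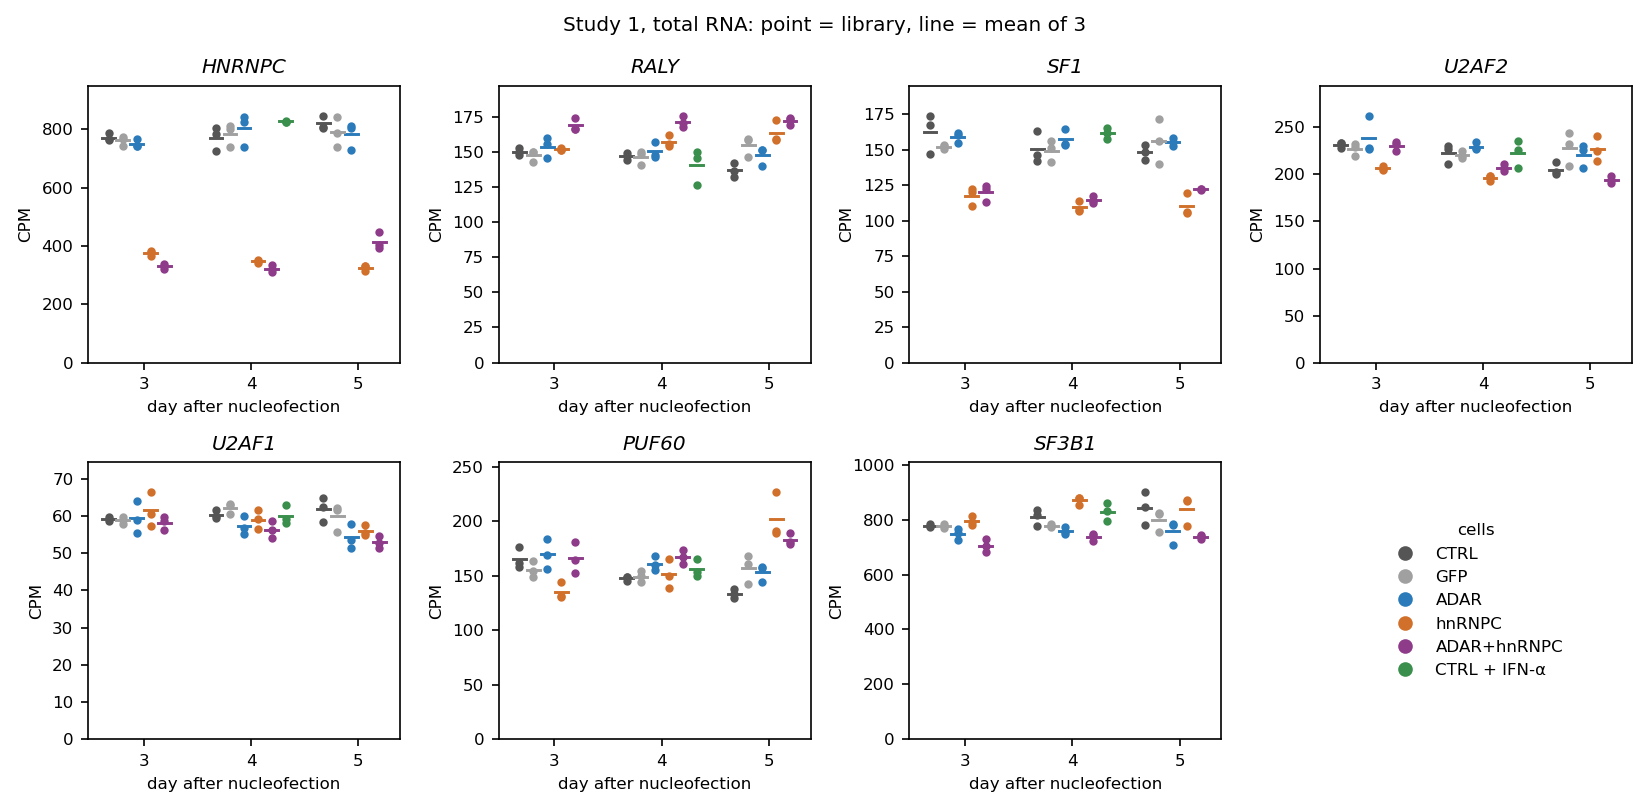
CPM of the 7 genes in the 48 libraries of study 1 by day after nucleofection, with a point per library and a line at the mean of 3. HNRNPC and SF1 in the hnRNPC and ADAR+hnRNPC libraries lie below every library without the gRNA, and PUF60 reaches 227 CPM in an hnRNPC library of day 5.

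RALY (ENSG00000125970.7, chr20:32581452-32696114, plus strand), the paralog, rose late in hnRNPC cells. On day 5 the CTRL libraries stood at 142, 132 and 136 CPM and the hnRNPC libraries at 173, 158 and 159 CPM, and these did not overlap. Against CTRL it stood at 0.02 ± 0.05 (log2) on day 3, at 0.10 ± 0.05 on day 4 (adjusted p = 0.0857) and at 0.26 ± 0.05 on day 5 (adjusted p = 1.68e-05), the last a 1.19-fold rise. GFP cells of day 5 were also above CTRL, by 0.18 ± 0.05 (adjusted p = 0.0169). Against those GFP cells RALY of hnRNPC cells stood 1.06-fold higher, which was not called (adjusted p = 0.161). In ADAR cells RALY was higher with the hnRNPC gRNA on all 3 days, by 0.14 ± 0.05, 0.19 ± 0.05 and 0.22 ± 0.05. The day 3 call was lost without ADAR replicate 2 (adjusted p = 0.156) or ADAR+hnRNPC replicate 3 (adjusted p = 0.111).

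SF1 (ENSG00000168066.16, chr11:64532078-64546258, minus strand), the branch point binding protein, was the only other member whose call kept 1 direction in all 6 comparisons of the hnRNPC gRNA in study 1. On day 3 the CTRL libraries stood at 174, 167 and 147 CPM and the hnRNPC libraries at 123, 120 and 110 CPM. Over the day course, the 18 libraries with the gRNA lay between 105 and 125 CPM and the 30 without it between 140 and 174 CPM, with no overlap. SF1 fell on every day, its log2 fold changes being −0.47 ± 0.06, −0.46 ± 0.06 and −0.43 ± 0.06 in time order (adjusted p between 6.86e-08 and 1.38e-07). In ADAR cells the log2 fold changes were −0.40 ± 0.06, −0.46 ± 0.06 and −0.35 ± 0.06.

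U2AF2 (ENSG00000063244.8, chr19:56165512-56186082, plus strand), which reads the pyrimidine run, moved by small amounts and in both directions. The hnRNPC libraries were lower than CTRL on day 3 (209, 204 and 206 against 233, 234 and 228 CPM) and on day 4, by log2 values of −0.17 ± 0.05 (adjusted p = 0.0116) and −0.18 ± 0.05 (adjusted p = 0.00375). On day 5 they were higher, at 241, 215 and 225 against 213, 202 and 200 CPM, by 0.15 ± 0.05 (adjusted p = 0.0153). That day 5 call did not hold without CTRL replicate 2 (adjusted p = 0.0502), CTRL replicate 3 (0.0597) or hnRNPC replicate 1 (0.131), nor with TMM factors from all genes (0.189), and against GFP cells the difference was −0.01 (adjusted p = 0.901). In ADAR cells U2AF2 stood at −0.05 ± 0.05 on day 3 (not called) and fell on day 4 (−0.15 ± 0.05) and day 5 (−0.18 ± 0.05). The day 4 call there was lost without ADAR+hnRNPC replicate 2 (adjusted p = 0.0536).

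U2AF1 (ENSG00000160201.7, chr21:44513066-44527680, minus strand), its small partner, was called in 1 of the 6 comparisons. It stood at 0.05 ± 0.05 on day 3 and −0.03 ± 0.05 on day 4 in hnRNPC cells against CTRL. The day 5 libraries stood at 64.8, 62.4 and 58.5 CPM in CTRL and 55.0, 55.4 and 57.6 CPM in hnRNPC cells, a log2 fold change of −0.14 ± 0.05 (adjusted p = 0.0171). The call was lost without CTRL replicate 1 (adjusted p = 0.102) or hnRNPC replicate 1 (0.0572), and against GFP cells (adjusted p = 0.114). In ADAR cells the log2 fold changes lay between −0.04 and −0.03 on the 3 days and none was called.

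PUF60 (ENSG00000179950.9, chr8:144898514-144912879, minus strand) had the widest swing among the untargeted members. On day 3 it was lower in hnRNPC cells, at 132, 131 and 144 CPM against 158, 162 and 177 CPM in CTRL, a log2 fold change of −0.29 ± 0.07 (adjusted p = 0.00114). On day 4 it did not pass the test, at 0.03 ± 0.07. On day 5 it was higher, at 227, 189 and 191 CPM against 138, 133 and 129 CPM, by 0.60 ± 0.07 (adjusted p = 2.6e-09), which is 1.52-fold. Against the GFP cells of that day, themselves 0.24 ± 0.07 above CTRL (adjusted p = 0.0286), it was 1.29-fold higher. In ADAR cells the response was −0.03 ± 0.07, 0.06 ± 0.07 and 0.26 ± 0.07, and only that of day 5 was called (adjusted p = 0.00131).

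SF3B1 (ENSG00000115524.11, chr2:198253239-198299803, minus strand), of the U2 snRNP, was called in none of the 6 comparisons. Its closest was hnRNPC against CTRL on day 4, where hnRNPC libraries at 854, 881 and 880 CPM did not overlap CTRL libraries at 777, 817 and 837 CPM (0.11 ± 0.05, adjusted p = 0.0509). The call passed with the replicate number as a block (adjusted p = 0.0104), with GFP cells as the control (0.00296), with limma-voom (0.0468) or DESeq2 (0.0462), and without CTRL replicate 3 (0.036). On the other days and in ADAR cells it stood between −0.08 and 0.03.

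**Figure D2:**
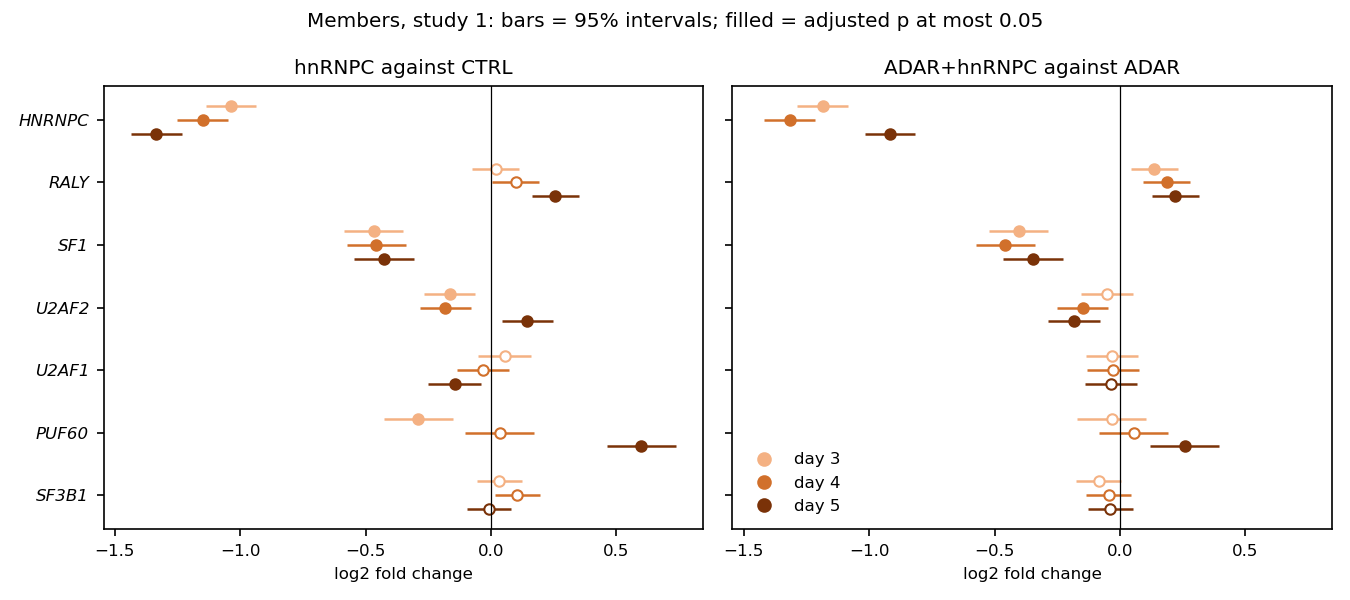
Log2 fold change of each gene on days 3, 4 and 5 for hnRNPC against CTRL and for ADAR+hnRNPC against ADAR cells, with bars of 95% intervals and filled points where the adjusted p was at most 0.05. HNRNPC lies between −1.33 and −0.92, SF1 between −0.47 and −0.35, and PUF60 runs from −0.29 on day 3 to 0.60 on day 5.

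The share of the 7 genes called has to be read against all tested genes. For hnRNPC against CTRL, 4, 3 and 6 of 7 were called on days 3, 4 and 5, where 39.5%, 53.5% and 65.9% of all tested genes were. For ADAR+hnRNPC against ADAR, 3, 4 and 5 of 7 were called, where 31.5%, 58.0% and 71.5% of all genes were. The counts include the targeted gene itself. The median log2 fold change of the 7 genes lay between −0.17 and −0.01 in these 6 comparisons and that of all genes between −0.01 and 0.03. On day 3 the share of hnRNPC calls that rose was 46.6%, and 33.2% with TMM factors from all genes. A call in 1 direction in all 6 comparisons was made for 2 of the 7 genes and for 14.9% of all tested genes. The first group of comparisons shares CTRL libraries with those of GFP, ADAR and IFN-alpha given next.

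Targeting ADAR alone called none of the 7 genes on day 3 and day 4, where edgeR called 0.0% and 1.11% of all genes. At an unadjusted p under 0.05 the members numbered 0 and 1 there, 633 of all genes were so on day 3, and DESeq2 and limma-voom called 0 members. On day 5, U2AF1 (−0.19 ± 0.05, adjusted p = 0.0188) and SF3B1 (−0.15 ± 0.05, adjusted p = 0.0239) were lower in ADAR cells, 2 of 7 where 12.1% of all genes were called. With the replicate number as a block, PUF60 was called as well (0.20, adjusted p = 0.0348). GFP cells called none of the 7 on days 3 and 4 by edgeR, DESeq2, limma-voom or an unadjusted p under 0.05 (0.0379% and 0.0303% of all genes called by edgeR). On day 5 they called RALY and PUF60 (9.99% of genes), and with the block also U2AF2 (0.15, adjusted p = 0.0255). IFN-alpha called 0 of 7 by edgeR, DESeq2, limma-voom and an unadjusted p under 0.05, although 20.5% of all genes were called. HNRNPC itself was called in none of these 7 comparisons and stood between −0.07 and 0.10 on the log2 scale. The share of called genes that rose depended on the scaling on day 5, being 58.5% for ADAR cells and 41.8% with DESeq2 size factors, and 79.1% for GFP cells and 64.7% with DESeq2 size factors.

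The hnRNPC response changed between days for several members. From day 3 to day 5 without ADAR targeting it moved for 5 of 7 genes (49.8% of all genes), by 0.89 ± 0.10 for PUF60, 0.31 ± 0.07 for U2AF2, 0.24 ± 0.07 for RALY, −0.20 ± 0.08 for U2AF1 and −0.30 ± 0.07 for HNRNPC. With ADAR targeting it moved for 2 of 7 (52.1% of all genes), by 0.29 ± 0.10 for PUF60 and 0.27 ± 0.07 for HNRNPC. The U2AF1 change was not called without the low-count filter (−0.20, adjusted p = 0.199), nor that of PUF60 with ADAR targeting when TMM factors came from all genes (0.24, adjusted p = 0.080). SF1 and SF3B1 were called in neither. The day change was not tested with GFP cells as the control. Against GFP cells, U2AF2 of hnRNPC cells stood at −0.0083 on day 5 (edgeR adjusted p = 0.901).

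Whether the response differed with ADAR targeting was tested as an interaction. On day 3 none of the 7 genes was called by edgeR, DESeq2 or limma-voom (2 members and 854 of all genes at an unadjusted p under 0.05, and 0.0% of all genes called). On day 4 none was called by those tools (2 at an unadjusted p under 0.05, and 13.5% of genes called). On day 5, 3 of 7 were called (49.6% of genes): HNRNPC fell by less with ADAR targeting (interaction 0.42 ± 0.07, adjusted p = 9.48e-06), U2AF2 was lower (−0.33 ± 0.07, adjusted p = 0.000376) and PUF60 rose by less (−0.34 ± 0.10, adjusted p = 0.0045). In ADAR+hnRNPC cells of day 5 the HNRNPC level itself was the highest among cells with the gRNA, 414 ± 28.6 CPM (SD, n = 3) against 326 ± 10.2 CPM in hnRNPC cells. How far the level of HNRNPC moved the U2AF2 and PUF60 differences was not tested.

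Some introns of the HNRNPC gene kept or gained reads while the gene fell, and others fell with it. Of its 10 intron intervals 9 passed the filter, and in hnRNPC cells 4, 5 and 6 of these fell and 1, 2 and 1 rose on days 3 to 5. Introns 2 and 3, on either side of the targeted exon, were higher relative to the gene in 4 and in all 6 of the comparisons. By that measure 10.3%, 13.3% and 17.9% of all introns were called in hnRNPC cells on days 3 to 5. Of those calls, 92.2%, 86.3% and 72.2% rose. In ADAR cells 6.35%, 17.5% and 27.0% of all introns were called, and 81.6%, 87.2% and 39.7% of those calls rose. Intron 3 (chr14:21699232-21702111), just downstream of the targeted exon, stood at 4.38, 3.96 and 3.78 CPM in CTRL libraries of day 3 and at 7.78, 7.41 and 6.19 CPM in hnRNPC libraries. It rose by 0.82 ± 0.15 on day 3 (adjusted p = 0.000158) and 0.53 ± 0.15 on day 4 (adjusted p = 0.013), and stood at 0.32 ± 0.15 on day 5 (adjusted p = 0.116). In ADAR cells it rose by 0.57 ± 0.15 on day 3 (adjusted p = 0.0158), and stood at 0.40 and 0.29 on days 4 and 5 without a call. Relative to the gene count, which fell, intron 3 was higher in all 6 comparisons, by 1.19 to 1.85 on the log2 scale in limma.

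Intron 2 (chr14:21702389-21731469), upstream of exon 3, was called in none of the 6 comparisons in CPM, at −0.51 to 0.14. Relative to the gene it was higher by 1.03 and 1.14 on days 4 and 5 and, in ADAR cells, by 1.46 and 0.98 on the same days. Intron 5 (chr14:21681277-21698477) was 0.79 to 1.13 higher relative to the gene in all 6 comparisons, with a CPM fall called only in hnRNPC cells of day 5 (−0.44 ± 0.16). Annotated exons of other transcripts took up 3.12% of intron 2, 2.01% of intron 3 and 1.76% of intron 5.

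Intron 8 (chr14:21679466-21679564), a 99-base interval that lies wholly inside exons of other HNRNPC transcripts, was higher as well. Its CTRL libraries of day 5 stood at 8.22, 8.56 and 7.91 CPM and the hnRNPC libraries at 10.9, 11.2 and 9.88 CPM, a rise of 0.37 ± 0.10 (adjusted p = 0.00563). Relative to the gene it was 1.33 to 1.71 higher in all 6 comparisons.

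Other HNRNPC intervals fell with the gene. Intron 4 (chr14:21698526-21699155), of which 62.4% lies in exons of other transcripts, fell on the 3 days without ADAR targeting (log2 fold changes −1.46 to −1.52), and more than the gene on days 3 and 4 (−0.41 ± 0.08 and −0.35 ± 0.08 relative to it). Intervals at the gene's ends (chr14:21677295-21678771 and chr14:21737564-21737653) and within intron 7 (chr14:21679723-21679968) fell in the same 3 comparisons (−0.93 to −1.43). The first pair lies wholly in annotated exons, and the last holds 3 exonic bases at its edge and 88.2 ± 9.19 CPM (SD, n = 3) in CTRL libraries of day 4. Intron 1 (chr14:21731496-21737456), 37.3% of it in exons, fell on day 4 (−0.67 ± 0.21) and day 5 (−0.82 ± 0.21). How far fragments that cover both exon and interval make up these counts was not tested.

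**Figure D3:**
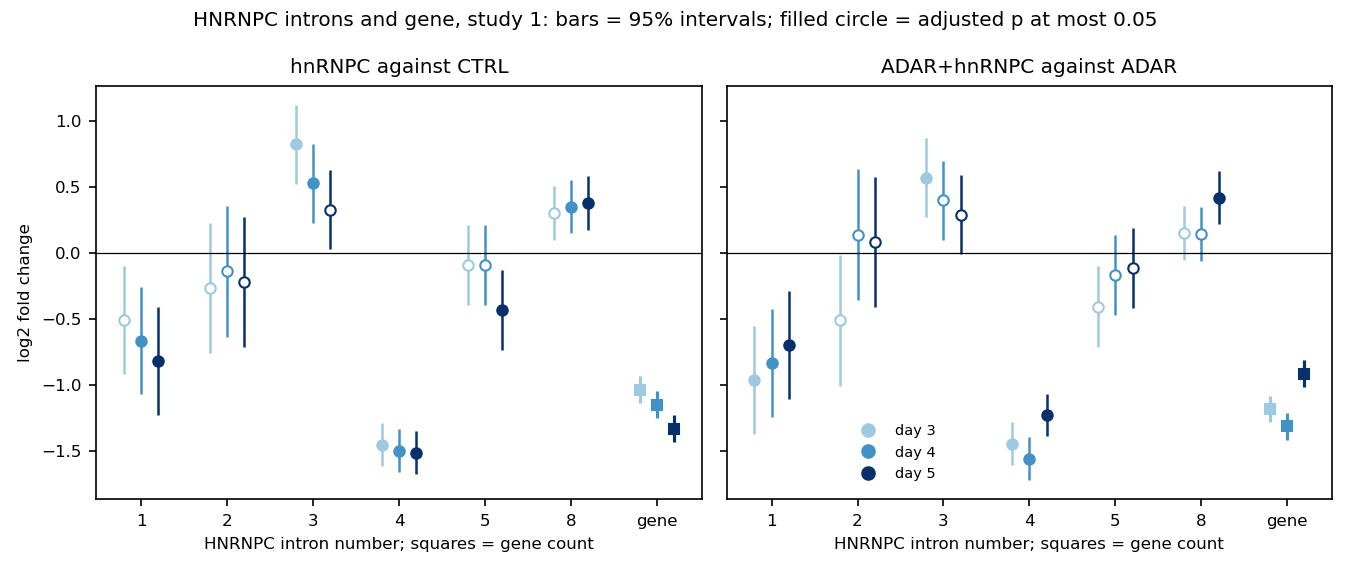
Log2 fold change in CPM of the HNRNPC introns that passed the filter, numbered by the representative transcript, and of the gene count (squares), by day, with bars of 95% intervals and filled circles where the adjusted p was at most 0.05. Intron 3 lies above 0 in all 6 comparisons, introns 2 and 5 near 0 or between 0 and the gene, and intron 4 at −1.56 to −1.23.

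An editing-cluster region (ECR) is an interval that the study drew 1000 bases around groups of adenosine-to-inosine sites. That at HNRNPC (chr14:21699605-21702155) covers most of intron 3 and 44 bases of exon 3. Scaled like the genes, it held 117 ± 4.93 CPM (SD, n = 3) in CTRL cells of day 4, far more than the 4.02 CPM of intron 3, and unlike intron 3 it fell in all 6 comparisons. The log2 fold changes were −1.43 ± 0.07, −1.29 ± 0.07 and −1.46 ± 0.07 on days 3 to 5, where 37.9%, 45.6% and 52.1% of all ECRs were called. In ADAR cells they were −1.28 ± 0.07, −1.50 ± 0.07 and −1.02 ± 0.07, where 27.5%, 50.4% and 60.2% were. The ECRs in the RALY span lie in the region where the gene EIF2S2 runs on the opposite strand, and the counting did not separate strands, so they are not described as RALY. How far reads of exon 3 in those 44 bases make up the counts of the HNRNPC region was not tested.

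Editing at the 132 listed sites on the HNRNPC strand was computed as the share of reads with G over all sites of a library. On days 3, 4 and 5, CTRL cells stood at 3.20% ± 0.82, 4.41% ± 0.24 and 3.66% ± 0.55 (SD, n = 3). The same days gave 5.39% ± 0.49, 6.04% ± 0.62 and 5.52% ± 0.59 with hnRNPC targeting. ADAR cells, which are targeted for an editing enzyme, stood at 1.69% ± 0.05, 2.14% ± 0.20 and 1.59% ± 0.18. ADAR+hnRNPC cells stood at 3.43% ± 0.43, 3.25% ± 0.58 and 3.00% ± 0.39. Each value rests on 1301 to 3376 reads a library in these groups, and no test was made. Over 273 sites of study 2, cytosolic RNA stood at 6.41% ± 0.78 (SD, n = 2) in CTRL and 7.15% ± 0.21 in hnRNPC cells, and total RNA at 3.32% ± 0.01 and 4.82% ± 0.55. With ADAR targeting, cytosolic RNA stood at 1.86% ± 0.46 in ADAR and 3.01% ± 0.50 in ADAR+hnRNPC cells. Total RNA stood at 1.88% ± 0.54 in ADAR and 1.30% ± 0.41 in ADAR+hnRNPC cells, with overlapping libraries (1.50% and 2.26% against 1.00% and 1.59%). Nuclear RNA of hnRNPC cells stood at 4.42% ± 0.71. The values of study 2 rest on 1248 to 4755 reads a library, and no test was made. How far a shift of reads between sites moved the shares of either study was not tested. Across its ECRs the study describes slightly higher editing when hnRNPC was targeted, and changes both ways at single sites.

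Among the 39 tested intron intervals that lie in 1 gene, the hnRNPC gRNA called 5, 7 and 11 on days 3 to 5 (11.4%, 15.3% and 26.7% of all introns). In ADAR cells it called 6, 7 and 16 (6.08%, 23.4% and 40.6%). Relative to the gene, 4, 7 and 7 were called (10.3%, 13.3% and 17.9%), the first count being 8 with the replicate block, and, in ADAR cells, 5, 7 and 13 (6.35%, 17.5% and 27.0%). HNRNPC supplied all 5 and all 7 of those in CPM on days 3 and 4 without ADAR targeting. ADAR targeting alone called 0 member introns on days 3, 4 and 5 (0.0%, 0.00458% and 0.00916% of introns, with 222, 1265 and 922 of all introns at an unadjusted p under 0.05), and IFN-alpha called 0 (1.87%), or 1 by DESeq2, limma-voom or with the block.

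In the other members, intron calls were few and most came on day 5. U2AF2 intron 5 (chr19:56172556-56173867) stood at 2.32, 2.63 and 2.99 CPM in ADAR cells of day 5 and at 5.30, 4.52 and 5.10 CPM in ADAR+hnRNPC cells, a rise of 0.91 ± 0.15 (adjusted p = 7.22e-06), while U2AF2 intron 1 (chr19:56166520-56170575) fell (−0.81 ± 0.19). Relative to the gene, intron 5 was higher by 1.09 ± 0.14 there, by 0.56 ± 0.14 on day 4, and by 0.47 ± 0.14 in hnRNPC cells of day 4. SF3B1 intron 20 (chr2:198263306-198264778) rose in ADAR+hnRNPC against ADAR cells on days 4 and 5, by 0.57 ± 0.16 and 0.61 ± 0.16. The 3 tested SF1 introns fell in that comparison on day 5, with −0.59 ± 0.22, −1.06 ± 0.30 and −1.02 ± 0.22 for introns 1 to 3. Of all introns called there in CPM, 39.6% rose. Relative to the gene, SF1 introns 2 and 3 were called lower (−0.72 ± 0.27 and −0.68 ± 0.20) and intron 1 was not called (−0.24 ± 0.20). SF1 intron 2 then stood at 7.86, 8.72 and 9.61 CPM against 18.8, 18 and 18 CPM in ADAR cells, while all libraries of study 1 without the gRNA spread from 10.5 to 23.5 CPM. U2AF1 intron 1 (chr21:44524513-44527560) fell there as well (−0.51 ± 0.17).

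For hnRNPC cells of day 5, the intron with the largest change in each other member is given next, chosen by that same change. Calls there were made for 1 of 4 tested introns of U2AF2, 1 of 11 of SF3B1, 1 of 1 of PUF60 and 1 of 6 of RALY. SF1 and U2AF1 had 0 of 3 and 0 of 5, and 26.7% of all introns were called. Each of the 4 calls was lost without at least 1 library. U2AF2 intron 9 (chr19:56180159-56180448) rose by 0.72 ± 0.21, a call lost without CTRL replicate 2 (adjusted p = 0.0557). SF3B1 intron 4 (chr2:198283313-198285151), which lies wholly in exons of other transcripts, fell (−0.63 ± 0.21), a call lost without CTRL replicate 3 (adjusted p = 0.108), hnRNPC replicate 1 (0.0791) or hnRNPC replicate 2 (0.0562). PUF60 intron 7, also wholly in exons of other transcripts, rose by 0.46 ± 0.15, which was lost without any of 4 libraries (CTRL replicates 1 and 2, hnRNPC replicates 1 and 3; adjusted p up to 0.123). RALY intron 8 (chr20:32665052-32666310) rose by 0.43 ± 0.13, which was lost without CTRL replicate 1 (adjusted p = 0.0838) or hnRNPC replicate 1 (0.0685). SF1 intron 3 (chr11:64537881-64540901) stood at −0.53 ± 0.22 and was called with the replicate block (adjusted p = 0.0316), and U2AF1 intron 7, again wholly in such exons, stood at 0.28 ± 0.13. Such exons took up 34.6% of RALY intron 8 and 25.9% of SF1 intron 3, but none of U2AF2 intron 9. The PUF60 and RALY introns were not called relative to their genes, at −0.12 ± 0.15 and 0.17 ± 0.14.

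In study 2, with a different gRNA and background, HNRNPC was again lower with the gRNA. Total RNA of CTRL cells held 894 and 642 CPM and that of hnRNPC cells 450 and 489 CPM, a log2 fold change of −0.71 ± 0.14 (adjusted p = 0.0112). Cytosolic RNA held 934 and 819 against 450 and 530 CPM, a log2 fold change of −0.84 ± 0.14 (adjusted p = 0.00512). Against ADAR cells, ADAR+hnRNPC cells were lower in total RNA (−0.87 ± 0.14, adjusted p = 0.00357) and stood at −0.53 ± 0.14 in cytosolic RNA (adjusted p = 0.0745), with no overlap in any of these comparisons. With 2 libraries a group, the HNRNPC call was lost without hnRNPC replicate 1 or 2 in total RNA (adjusted p = 0.0778 and 0.0671), without CTRL or hnRNPC replicate 1 in cytosolic RNA (0.0817 and 0.0739), and without ADAR replicate 2 in total RNA (0.0576).

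SF1 was the other gene called for hnRNPC against CTRL in total RNA. It stood at 142 and 134 CPM against 179 and 260 CPM, a log2 fold change of −0.67 ± 0.15 (adjusted p = 0.0198), and at −0.38 (adjusted p = 0.191) without CTRL replicate 2, the library of 260 CPM. The call was also lost without either hnRNPC library (adjusted p = 0.0747 and 0.149). So 2 of 7 genes were called there (7.18% of all genes), 4 without CTRL replicate 1, 1 without CTRL replicate 2 and 0 without either hnRNPC library. PUF60 stood at 0.34 ± 0.10 (adjusted p = 0.0501) and was called with the replicate block (0.0489), limma-voom (0.0481) and DESeq2 (0.0231). In cytosolic RNA only HNRNPC was called (1 of 7, 3.61% of genes), SF1 standing at −0.21 ± 0.15.

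For ADAR+hnRNPC against ADAR in total RNA, 4 of 7 genes fell (26.9% of genes): HNRNPC, RALY (−0.27 ± 0.09), U2AF2 (−0.35 ± 0.09) and PUF60 (−0.35 ± 0.10). RALY thus fell where in study 1 it rose, with libraries at 146 and 142 against 169 and 177 CPM. Leaving out any of the 4 libraries left 0 to 2 calls, and RALY and U2AF2 were called in none of these 4 fits. SF1 stood at −0.12 ± 0.15. This comparison depended on the scaling as a whole: TMM factors from all genes moved the median of all genes by −0.18 and the share of called genes that rose from 51.1% to 22.3%. In cytosolic RNA 0 of 7 were called by edgeR and limma-voom, and HNRNPC by DESeq2 (1 of 7 at an unadjusted p under 0.05, and 1.66% of genes called by edgeR).

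**Figure D4:**
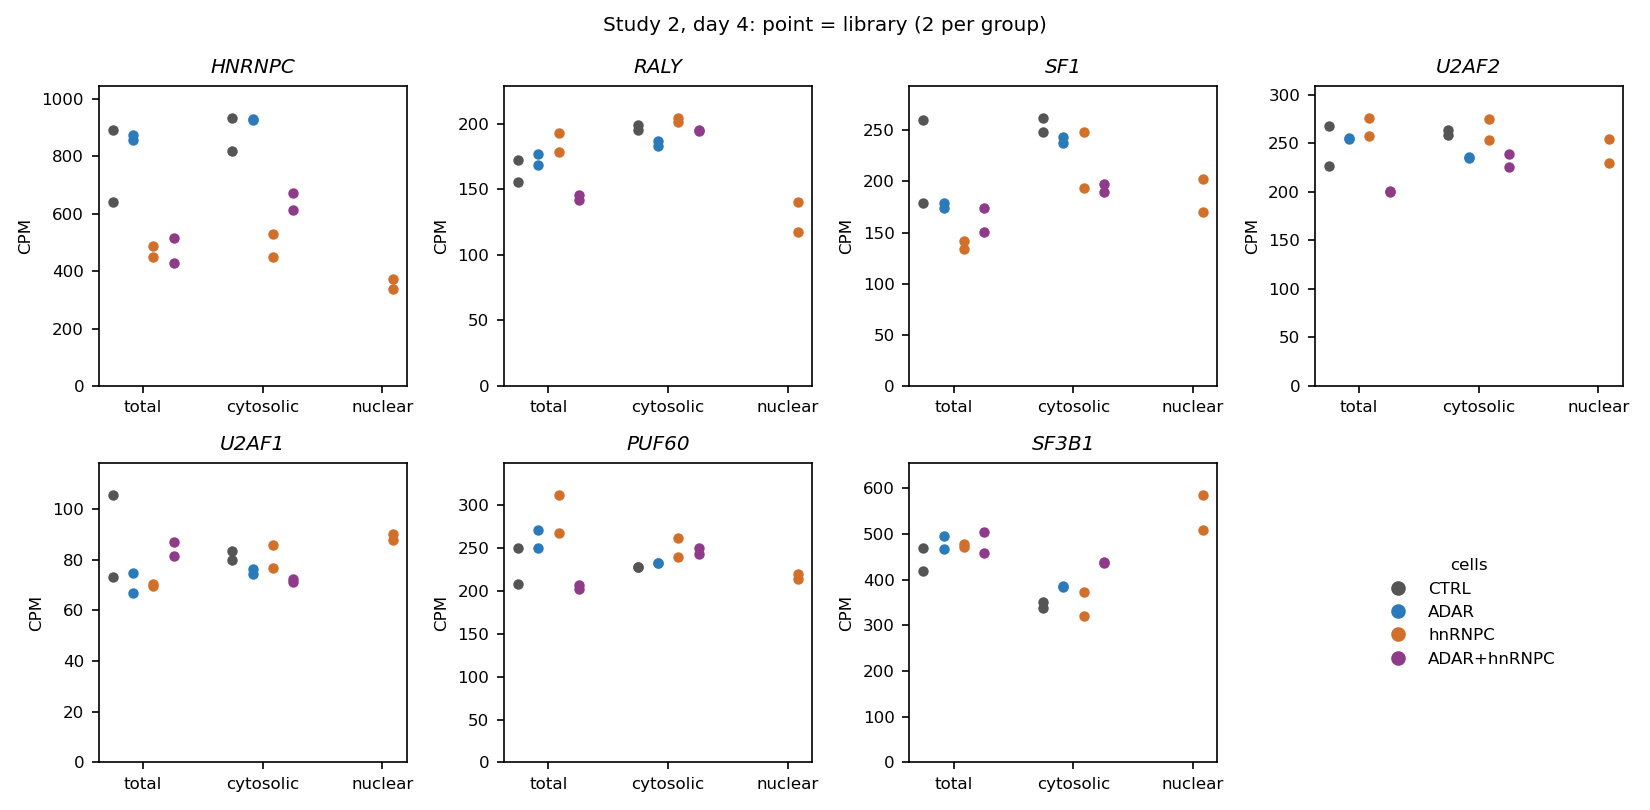
CPM of the 7 genes in the 18 libraries of study 2, by RNA fraction and gRNA group, with a point per library. HNRNPC libraries with the gRNA lie at 338 to 672 CPM and those without it at 642 to 934 CPM, and SF3B1 is lower in cytosolic RNA and RALY higher than in nuclear RNA of hnRNPC cells.

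The relative levels of some members differed between RNA fractions, each library being scaled to its own total. In hnRNPC cells, RALY stood at 202 and 204 CPM in cytosolic and 117 and 140 CPM in nuclear RNA (0.66 ± 0.09, adjusted p = 1.26e-05), and HNRNPC at 450 and 530 against 338 and 372 CPM (0.47 ± 0.14, adjusted p = 0.00887). SF3B1 went the other way, with 320 and 373 against 586 and 510 CPM (−0.66 ± 0.10, adjusted p = 2.61e-05). These 3 of 7 genes were called where 68.8% of all genes were, and with TMM factors from all genes SF1 (0.47), U2AF2 (0.36) and PUF60 (0.45) were called higher in cytosolic RNA as well. Averaged over the 4 gRNA groups, cytosolic exceeded total RNA for SF1 (0.40 ± 0.08), RALY (0.23 ± 0.04) and HNRNPC (0.20 ± 0.07) and was lower for SF3B1 (−0.32 ± 0.05), 4 of 7 where 70.7% of all genes were called. With TMM factors from all genes the share of called genes that rose went from 50.2% to 64.5% here and from 50.5% to 63.6% for cytosolic against nuclear RNA. U2AF1 stood at −0.02 ± 0.06 there, and at 0.14 with TMM factors from all genes, a scaling that moved the median of all genes by 0.17 for cytosolic against total and by 0.27 for cytosolic against nuclear RNA.

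Compared per kilobase of exon in CTRL cells of day 4, HNRNPC was highest at 106 ± 5.70 CPM per kilobase (SD, n = 3), followed by SF3B1 at 77.8 ± 2.94 and U2AF2 at 55.2 ± 2.52. SF1 stood at 25.2 ± 1.84, RALY at 19.6 ± 0.32, PUF60 at 19.3 ± 0.25 and U2AF1 at 5.44 ± 0.10. RALY and PUF60, neighbours in this order, differed by less than their SDs with the length used here. The length was the union of all annotated exons, of a later GENCODE release than the counts. For U2AF1 it is 11095 bases against 945 in its representative transcript, and for PUF60 7645 against 1868. For RALY the 2 lengths are closer, 7513 and 6213 bases. The order, the places of U2AF1 and PUF60 above all, therefore depends on the length used.

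Other genes of the same step were counted over whole lists, and those named are the ones called in 1 direction in all 6 comparisons. All tested genes were called at 39.5%, 53.5% and 65.9% for hnRNPC against CTRL on days 3 to 5 and at 31.5%, 58.0% and 71.5% in ADAR cells, against which the counts of all 4 lists are to be read. Of 21 U2 snRNP and SF3 partners, 8, 10 and 15 were called for hnRNPC against CTRL on days 3 to 5 (5 up and 3 down, 6 up and 4 down, 7 up and 8 down), with medians between −0.03 and 0.01. In ADAR cells 4, 11 and 13 of the 21 were called. In all 6 comparisons DNAJC8 and SNRPA1, a U2 snRNP protein, fell and SMNDC1, a spliceosome assembly factor, rose. On day 5 DNAJC8 stood at 124 ± 4.74 CPM in CTRL and 68.6 ± 2.99 CPM in hnRNPC cells (SD, n = 3, log2 fold change −0.85 ± 0.06), SNRPA1 at 43.9 ± 2.26 and 33.6 ± 0.28 CPM (−0.39 ± 0.05) and SMNDC1 at 25.7 ± 1.50 and 32.0 ± 1.71 CPM (0.32 ± 0.07).

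Of the 7 paralogs listed, 4 were tested, and 2, 3 and 3 were called for hnRNPC against CTRL on days 3 to 5. RBM23, a relative of RBM39 and U2AF2, rose in all 6 comparisons, from 98.7 ± 1.94 to 143 ± 3.89 CPM on day 5 (0.54 ± 0.04). HNRNPCL1 and RALYL, the other relatives of hnRNPC and RALY, stayed at or below 1.17 CPM in both studies. Of 10 other binders of uridine or pyrimidine runs, 5, 5 and 6 were called. CELF1 rose in all 6 comparisons (0.29 ± 0.04 on day 5) and PTBP1, the polypyrimidine tract binding protein, fell in all 6 (414 ± 17.6 to 361 ± 24.0 CPM on day 5, −0.20 ± 0.06). Of 8 factors of the second step at the 3′ splice site, 3, 8 and 6 were called, and CDC40, which acts at that step, rose in all 6 (0.15 ± 0.04 on day 5 and 0.59 ± 0.04 in ADAR cells). Against these, 14.9% of all tested genes were called in 1 direction in all 6 comparisons, as were 3 of 21, 1 of 4, 2 of 10 and 1 of 8 in the lists.

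Across the 16 group means of study 1, the genes with the pattern most like HNRNPC by Pearson's r of log2 CPM were WRN (0.996), SUSD1 (0.991), ETFA (0.986), WASHC5 (0.986) and DDX23 (0.985). SF1 ranked 28 of 13192 at 0.974. For RALY they were QPRT (0.935), LBX2 (0.935), CNOT3 (0.934), H2AJ (0.933) and PIDD1 (0.929), and HNRNPC itself stood at −0.81. The groups share gRNAs and days, so these values are a description.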

How the data were processed

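Total RNA depleted of ribosomal RNA was sequenced with a strand-specific kit. The authors aligned reads with STAR 2.5.4a to GRCh37 with GENCODE 19 and counted uniquely mapped fragments with featureCounts without using strand. The deposited tables hold raw counts per gene, per intron interval (gene intervals without merged principal exons, study 1) and per editing-cluster region, and counts of reads with the edited base and of all reads per editing site.

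From these counts, edgeR 4.0.16 (R 4.3.3) quasi-likelihood tests were run with all libraries of a study in 1 fit, on genes with an average log2 CPM of at least 0.5, introns of at least 1 (gene totals and factors) and regions of at least 4.5 (region totals), with Benjamini-Hochberg adjusted p over all tested and a threshold of 0.05. TMM factors came from the tested genes, a choice made after the shift of the median of all genes was seen. Introns relative to their gene were tested with limma 3.58.1 on log2((intron + 0.5)/(gene + 0.5)). Gene positions, exons and sequences came from a GRCh37 annotation and genome, and the exons are of a later GENCODE release than the counts. Of the 96 intervals, 8 lie where RALY and EIF2S2 overlap and were left out. The fitting was tested on simulated counts. The genes, lists and tests were chosen with earlier results of these data known.

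Genes named from lists were those called in 1 direction in all 6 hnRNPC comparisons, at most 4 a list by size on day 5. Introns named were the largest change per gene in hnRNPC against CTRL on day 5 and those called there that moved by 1 or more on the log2 scale. Other introns, the SF1 and SF3B1 introns of ADAR+hnRNPC cells among them, were chosen after their values were seen. The replicate numbers come from the labels. Same-numbered libraries deviated together (every pair's r over 0.1) in 8 of 16 comparisons of study 1 (r from −0.17 to 0.70). They did so in 3 of 5 of study 2 (−0.21 to 0.30). The study's methods treated each group of study 1 as its own condition, and the fits reported follow that, without a block. Alternatives were DESeq2 1.42.0, limma-voom, other size factors, other filters, a replicate block, GFP controls and leaving out each library. 1 listed marker gene is not reported here.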

Additional observations from a re-analysis of the deposited data

Results flagged for a closer look

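These results were picked out because the test of the difference itself passed between days or between cells with and without ADAR targeting. The change of the hnRNPC response from day 3 to day 5 without ADAR targeting was 0.89 for PUF60, 0.31 for U2AF2, 0.24 for RALY, −0.2 for U2AF1 and −0.3 for HNRNPC on the log2 scale. The U2AF1 change was not called without the low-count filter (edgeR adjusted p = 0.199). With ADAR targeting it was 0.29 for PUF60 and 0.27 for HNRNPC. The response of day 5 with ADAR targeting differed from that without it by 0.42 for HNRNPC, −0.33 for U2AF2 and −0.34 for PUF60. Against GFP cells, U2AF2 of hnRNPC cells stood at −0.0083 on day 5 (edgeR adjusted p = 0.901). GFP cells of day 5 were themselves above CTRL cells of day 5 for PUF60 (0.24) and RALY (0.18). The part of the CTRL libraries in the day 5 values was not tested.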

How the results depend on the processing

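Of 2408 values under alternatives, 2292 kept their direction and their side of the threshold or, for counts, stayed within 1.5 times, and 2 reversed. With GFP cells as the control, the members called for hnRNPC on day 5 went from 6 to 3, and U2AF2 reversed from 0.15 to −0.0083. TMM factors from all genes, an alternative chosen after seeing the data, reversed U2AF1 in cytosolic against total RNA (−0.02 to 0.14), raised the members called in cytosolic against nuclear RNA from 3 to 6, and lowered them to 1 for the day change with ADAR targeting and to 0 for GFP on day 5. GFP on day 5 gave 1 with DESeq2 size factors or without the low-count filter, and ADAR on day 5 gave 0 without that filter. ADAR+hnRNPC against ADAR in cytosolic RNA gave 1 without the filter (HNRNPC −0.53) and with DESeq2 (HNRNPC −0.53). Intron totals raised the member introns of ADAR+hnRNPC on day 4 from 7 to 11. IFN-alpha introns went from 0 to 1 with limma-voom, DESeq2 and the replicate block. Without the low-count filter, U2AF2 of hnRNPC cells on days 3 and 5 and of ADAR+hnRNPC cells on day 4, U2AF1 on day 5 and its change from day 3 to day 5, and RALY of ADAR+hnRNPC cells on day 3 and in total RNA lost their calls (edgeR adjusted p from 0.0671 to 0.204). The cause of these changes was not tested.

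Leaving out 1 library gave 0 to 4 members for hnRNPC in total RNA (HNRNPC −0.93 to −0.45), 0 to 2 for ADAR+hnRNPC in total RNA (HNRNPC −1.01 to −0.75), 0 to 1 for hnRNPC in cytosolic RNA (HNRNPC −0.96 to −0.73), 7 to 11 member introns for hnRNPC on day 5 and 5 to 12 for ADAR+hnRNPC on day 4. With 2 libraries a group, the remaining library is assumed to vary like the other groups. The lowest intron count, 7, came without hnRNPC replicate 1 of day 5, and the highest, 12, without ADAR replicate 1 of day 4.

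With the replicate block, the day 4 interaction gave 1 member in place of 0 (SF3B1, −0.15, adjusted p = 0.0315 in edgeR) and introns relative to their gene on day 3 gave 8 in place of 4. PUF60 for hnRNPC in total RNA was called with it (adjusted p = 0.0489), as was SF3B1 intron 4 in ADAR+hnRNPC cells of day 5 (adjusted p = 0.0442). Beside these and the blocked values given with their results, the paired fit changed no call of a member gene. Counts of member introns called rose as well. They went from 5 to 7 and 11 to 12 for hnRNPC on days 3 and 5. For ADAR+hnRNPC they went from 7 to 10 and 16 to 17 on days 4 and 5. Relative to their gene, they went from 7 to 9 and 7 to 8 for hnRNPC on days 4 and 5. For ADAR+hnRNPC these went from 5 to 6, 7 to 9 and 13 to 14 on days 3 to 5.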
